A study of Homo sapiens with 45 samples.

Results

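Integrins are receptors of the cell surface that hold cells to the matrix, and each is made of 1 alpha and 1 beta subunit. The 10 subunits described here, ITGA2, ITGA3, ITGA5, ITGA6, ITGAV, ITGB1, ITGB4, ITGB5, ITGB6 and ITGB8, were chosen by name as those that epithelial cells are known for, out of 28278 gene names counted. They were measured in the established line HCT116, from a human colon cancer, after 72 hours with 25 nM of nontargeting siRNA or of siRNA against HNRNPK, which encodes an RNA-binding and DNA-binding protein of the nucleus. RNA sequencing covered 4 nontargeting libraries named siNTC5, 4 HNRNPK siRNA libraries, and 2 further nontargeting libraries named Scramble, which were purified with another kit and counted in tables of their own. Replicates 1 and 2 of siNTC5 and of HNRNPK siRNA, and both Scramble libraries, were made with a TruSeq stranded mRNA kit, and replicates 3 and 4 with a stranded mRNA Ligation kit. Chromatin was profiled by ChIP for lamin B1 and 3 histone marks, of which 7 lists of called domains were used here, 1 per antibody and siRNA. Nothing in the labels says whether the replicates of a group came from separate cultures, so p-values measure the spread between these libraries, which may be technical.

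The alpha subunit largely sets which ligand an integrin binds, and the beta subunit links it to the cytoskeleton. ITGB1 is the common partner of ITGA2 in a collagen receptor, of ITGA3 and ITGA6 in laminin receptors, and of ITGA5 in the fibronectin receptor. ITGA6 also pairs with ITGB4 in the receptor that anchors hemidesmosomes, the junctions that fix epithelia to laminin of the basement membrane. ITGAV pairs with ITGB1, ITGB5, ITGB6 and ITGB8, and its complexes with ITGB6 and ITGB8 are known for releasing active TGF-beta from its latent form.

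Total counts per library were 14810376 to 23633851 in siNTC5, 12107280 to 15255556 in HNRNPK siRNA and 55007171 to 59209169 in Scramble. Levels are given in CPM, the counts of a gene relative to the size of its library, after TMM normalisation of all 10 libraries together. They are not corrected for transcript length, so levels of different genes are not compared. HNRNPK itself, the targeted gene, was at 931, 968, 827 and 819 CPM in siNTC5, at 250, 223, 156 and 163 CPM in HNRNPK siRNA, and at 815 and 851 CPM in Scramble. It fell by 2.17 on the log2 scale (SE 0.06, adjusted p = 7.29e-15, edgeR quasi-likelihood test). In bulk RNA, fewer cells that express a gene and less RNA per cell cannot be told apart. Of 9 markers of colon epithelium, CDX1 and VIL1 were under 1 CPM in every library and KRT20 was listed at 0 in all but the Scramble libraries. The summed CPM of the 9 was 2698 to 3130 in siNTC5, 4407 to 5402 in HNRNPK siRNA and 4162 to 4268 in Scramble. The markers did not move together. KRT8 was at 1069 to 1252 CPM in siNTC5 and at 1967 to 2596 CPM in HNRNPK siRNA. KRT18 was at 635 to 675 CPM and at 1616 to 1860 CPM in the same order. KRT19 fell, from 601 to 946 CPM in siNTC5 to 273 to 393 CPM in HNRNPK siRNA. EPCAM and CDH1 were higher after HNRNPK siRNA, and CDX2 overlapped between these groups. Leukocyte markers summed to 17.7 to 24.6 CPM in siNTC5, 22.1 to 27.2 CPM in HNRNPK siRNA and 55.7 to 63.3 CPM in Scramble, nearly all of it CD68, with 4 of the 5 under 1 CPM throughout and CD3E at 0. Among 5 fibroblast markers COL1A2, DCN and LUM were under 1 CPM throughout, LUM at 0, and the sum, almost entirely COL1A1, was 44.5 to 73.6 CPM in siNTC5, 75.2 to 121 CPM in HNRNPK siRNA and 32.6 to 36.2 CPM in Scramble. The 4 endothelial markers summed to 0.827 to 1.34 CPM, 1.93 to 3.68 CPM and 1.52 to 2.00 CPM in the same order. The part of these shifts in the integrin results was not tested.

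After HNRNPK siRNA the laminin receptor subunits ITGB4, ITGA3 and ITGA6 were lower. ITGB1, the partner of ITGA3 and ITGA6, did not pass the test, and the ITGAV partners ITGB5 and ITGB8 were higher. ITGB4 fell to 19.0% of its siNTC5 mean, ITGA3 to 50.1% and ITGA6 to 68.5%, while ITGB5 rose to 187% and ITGB8 to 226%. ITGA5 and ITGAV fell slightly and ITGA2 rose slightly. Of the 9 subunits with enough counts to test, 3 were higher and 5 lower at an adjusted p under 0.05. Over all 13933 genes tested, 35.5% were called higher and 36.1% lower, 71.5% in all, so a call in itself does not set the integrin genes apart. A log2 fold change of at least 1 in either direction was reached by ITGB4 and ITGB8 among the 9, against 15.8% of all genes. The median log2 fold change of the 9 was -0.24, against -0.004 over all genes. In CPM, 8 of the 9 had no overlap between the 4 HNRNPK siRNA and the 4 siNTC5 libraries, as had 56.9% of the tested genes named in every table.

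**Figure D1:**
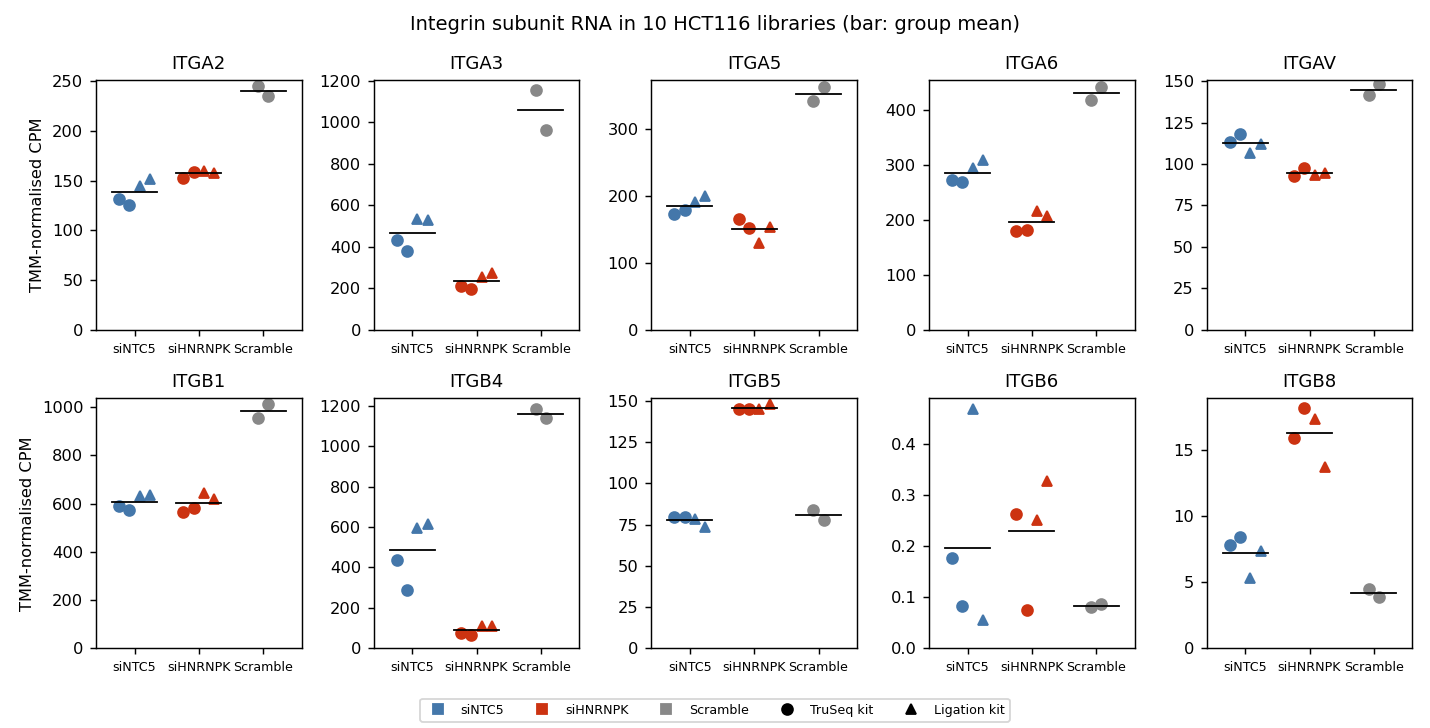
Normalised CPM (vertical axes, each starting at 0 with its own scale) of the 10 integrin subunits in the 4 siNTC5, 4 HNRNPK siRNA and 2 Scramble libraries, with the group mean as a bar and the library kit as the marker shape. ITGB4 sits between 68.2 and 113 CPM in every HNRNPK siRNA library and at 289 CPM or more in every control, ITGB5 sits above all controls in HNRNPK siRNA, and ITGB1 overlaps between HNRNPK siRNA and siNTC5.

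RefSeq promoter sequences (GRCh38.p14) were found for 8 of the 10 subunits, and for 7 of them at the 5′ end of the gene. None was found for ITGB4 or ITGA3, the subunits that fell most. Of the called subunits with such an entry, ITGA6 fell most and ITGB5 rose most, and their 250 bases before the annotated start are shown so that the letters of a lowered and a raised subunit can be set side by side. ITGA6 reads from chr2:172427086-172427335 on the plus strand and ITGB5 from chr3:124901419-124901668 on the minus strand. Capitals mark GGGCGG, a letter pattern that Sp factors are known to bind, in ITGB5, and TATAAA, the TATA box letters, in ITGA6, each on either strand.
ITGA6: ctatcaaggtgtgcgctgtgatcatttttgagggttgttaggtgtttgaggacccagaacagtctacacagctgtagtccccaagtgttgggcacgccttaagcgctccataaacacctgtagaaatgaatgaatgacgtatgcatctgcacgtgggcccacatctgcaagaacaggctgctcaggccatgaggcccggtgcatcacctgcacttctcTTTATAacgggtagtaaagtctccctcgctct
ITGB5: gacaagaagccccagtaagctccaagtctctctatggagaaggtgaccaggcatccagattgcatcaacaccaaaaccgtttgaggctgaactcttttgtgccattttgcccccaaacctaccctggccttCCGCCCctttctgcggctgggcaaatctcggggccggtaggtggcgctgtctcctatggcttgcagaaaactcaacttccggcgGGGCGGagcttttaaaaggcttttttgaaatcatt
The ITGA6 window held 1 TATAAA and no GGGCGG, and the ITGB5 window held 2 GGGCGG and no TATAAA. Over 35116 RefSeq promoter windows of 250 bases, 42.6% held GGGCGG and 10.7% held TATAAA on either strand. CCCTCC, a C-rich pattern that was searched because HNRNPK binds C-rich stretches, was in 42.2% of all windows, and TGANTCA, the AP-1 pattern, in 6.57%, and neither was in these 2. At the 5′ ends of the other subunits with an entry, GGGCGG was found 4 times for ITGA2, 3 times for ITGB1, once for ITGA5 and not for ITGAV or ITGB6. CCCTCC was found 4 times for ITGA5, 2 times for ITGB1 and once for ITGA2. Several subunits have more than 1 annotated start, and which start HCT116 uses was not tested. The windows of the further starts held other letters. That of ITGA6 had 3 GGGCGG and 2 CCCTCC, those of ITGB5 had 1 CCCTCC in one and 3 GGGCGG with 1 CCCTCC in the other, that of ITGB1 had 3 TATAAA and 1 CCCTCC, and that of ITGAV had 1 CCCTCC. The ITGB8 window, away from the 5′ end of the gene, had 2 GGGCGG.

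Among the laminin receptors, ITGB4, the beta subunit of hemidesmosomes, changed most. Its gene spans chr17:75721459-75757818. ITGB4 was at 437, 289, 597 and 614 CPM in siNTC5 replicates 1 to 4 and at 75.6, 68.2, 112 and 113 CPM in HNRNPK siRNA. The lowest siNTC5 library lay well above the highest HNRNPK siRNA library, and in both groups the Ligation libraries were the higher ones. The mean with its SD went from 484 ± 152 CPM to 92.1 ± 23.6 CPM over 4 libraries each, and the log2 fold change in edgeR was -2.37 (SE 0.09, adjusted p = 8.5e-14). Within the TruSeq libraries the log2 fold change was -2.33 (SE 0.15) and within the Ligation libraries it was -2.42 (SE 0.06).

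The 6.35 kb of ITGB4 at chr17:75751469-75757818, 17.5% of its span, overlap 46.3% of GALK1, which encodes the enzyme galactokinase. GALK1 had 22.1, 15.9, 28.1 and 26.3 CPM in siNTC5, 3.88, 3.49, 5.79 and 5.48 CPM in HNRNPK siRNA, and 40.1 and 38.5 CPM in Scramble. GALK1 fell by 2.30 on the log2 scale (SE 0.12, adjusted p = 8.18e-12), close to the fall of ITGB4. GALK1 counts were 4.29% to 5.51% of the ITGB4 counts in siNTC5, 4.86% to 5.17% in HNRNPK siRNA and 3.37% to 3.39% in Scramble. The libraries are stranded, but whether strand was used in counting is not given in the sources used here. Reads within the overlap therefore cannot be told apart. This limit covers the overlap alone, 17.5% of the ITGB4 span and 46.3% of that of GALK1.

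ITGA3, the alpha subunit of a laminin receptor with ITGB1 (chr17:50056110-50090481), was at 433, 379, 533 and 531 CPM in siNTC5. In HNRNPK siRNA it was at 212, 199, 254 and 275 CPM. All 4 values lay below the lowest siNTC5 library, and the Ligation libraries were again the higher ones in each group. The mean went from 469 ± 76.1 CPM to 235 ± 35.4 CPM (log2 fold change -0.99, SE 0.05, adjusted p = 2.41e-12, edgeR).

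ITGA6, which pairs with ITGB4 or ITGB1 (chr2:172427336-172506459), was at 272, 269, 295 and 310 CPM in siNTC5 and at 180, 182, 217 and 207 CPM in HNRNPK siRNA. The groups did not overlap. Its mean went from 287 ± 19.4 CPM to 196 ± 18.2 CPM (log2 fold change -0.54, SE 0.04, adjusted p = 1.17e-09, edgeR). This is the gene whose promoter letters with a TATAAA are printed above. The annotation places the antisense genes ITGA6-AS1 and PDK1-AS1 over it.

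The fibronectin receptor subunit ITGA5 (chr12:54395261-54419266) was at 173, 179, 191 and 200 CPM in siNTC5 and at 166, 153, 131 and 154 CPM in HNRNPK siRNA. The groups lay close to each other without overlapping. On the log2 scale the difference was -0.29 (SE 0.06, adjusted p = 0.00038). It was -0.45 (SE 0.06, adjusted p = 1.51e-08) within the Ligation libraries but -0.14 (SE 0.06, adjusted p = 0.0777) within the TruSeq libraries, where the call was lost.

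ITGA2, the collagen-binding alpha subunit (chr5:52989352-53094779), was at 132, 126, 144 and 151 CPM in siNTC5 and at 153, 159, 160 and 157 CPM in HNRNPK siRNA. Every HNRNPK siRNA library was above every siNTC5 library, the nearest pair by a narrow margin. On the log2 scale the difference was 0.20 (SE 0.05, adjusted p = 0.000895). Within the TruSeq libraries it was 0.28 (SE 0.06, adjusted p = 0.00161), and within the Ligation libraries it was 0.11 (SE 0.06, adjusted p = 0.0844), where the call was lost.

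ITGB1, the partner shared by most of these alpha subunits (chr10:32900318-32958230), was at 591, 575, 631 and 635 CPM in siNTC5 and at 566, 581, 642 and 620 CPM in HNRNPK siRNA. The groups lay within each other's range. On the log2 scale the difference was -0.01 (SE 0.04, adjusted p = 0.895).

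ITGAV (chr2:186590056-186680901), the alpha subunit that binds vitronectin and latent TGF-beta with its several partners, was at 113, 118, 106 and 112 CPM in siNTC5. In HNRNPK siRNA it was at 93.0, 97.5, 93.3 and 94.5 CPM, below every siNTC5 library. The mean went from 112 ± 4.76 CPM to 94.6 ± 2.04 CPM (log2 fold change -0.24, SE 0.05, adjusted p = 0.000118, edgeR).

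ITGB5, the beta subunit of a vitronectin receptor (chr3:124761948-124901418), went the other way. It was at 79.3, 79.5, 78.2 and 73.7 CPM in siNTC5 and at 144.8, 144.8, 145.0 and 147.7 CPM in HNRNPK siRNA. Both groups were tight, and they lay far apart. Its printed promoter window is the one with 2 GGGCGG. On the log2 scale the difference was 0.91 (SE 0.05, adjusted p = 3.77e-12), with 0.87 in the TruSeq and 0.96 in the Ligation libraries.

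ITGB8, a beta subunit whose complex with ITGAV activates latent TGF-beta (chr7:20329766-20415754), was at 7.86, 8.40, 5.29 and 7.38 CPM in siNTC5 and at 15.9, 18.2, 17.4 and 13.7 CPM in HNRNPK siRNA. The lowest HNRNPK siRNA library was above the highest siNTC5 library. On the log2 scale the difference was 1.17 (SE 0.12, adjusted p = 5.93e-08), with 1.07 in the TruSeq and 1.28 in the Ligation libraries. The antisense gene ITGB8-AS1 overlaps its annotated span.

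ITGB6, the epithelial partner of ITGAV in TGF-beta activation (chr2:160099671-160200272), had 3, 2, 7 and 1 counts in siNTC5, 4, 1, 3 and 4 counts in HNRNPK siRNA, and 4 counts in each Scramble library. These counts did not pass the filter on low counts, so ITGB6 was not tested and a change was not detectable at this depth.

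The ratio of 2 subunits within a library does not depend on how libraries are scaled. It is given here as log2 of the alpha over the beta subunit, as a description without a test, and since the genes differ in length only shifts of a ratio between libraries carry meaning. ITGA6 over ITGB4 was -0.68, -0.10, -1.01 and -0.99 in siNTC5 and 1.25, 1.42, 0.95 and 0.87 in HNRNPK siRNA. All 4 HNRNPK siRNA libraries lay above all 4 siNTC5 libraries, and the mean shift was 1.82, from -0.70 ± 0.42 to 1.12 ± 0.25 (SD, n = 4 each). ITGAV over ITGB5 was 0.51, 0.57, 0.44 and 0.60 in siNTC5 and -0.64, -0.57, -0.64 and -0.64 in HNRNPK siRNA, a mean shift of -1.16. ITGAV over ITGB8 went from 3.98 ± 0.24 to 2.54 ± 0.17. In these 3 pairs, which hold the changed beta subunits, the groups did not overlap.

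Against ITGB1, which did not pass the test, the alpha subunits shifted less. ITGA3 over ITGB1 went from -0.39 ± 0.17 to -1.37 ± 0.15 and ITGA6 over ITGB1 from -1.09 ± 0.04 to -1.62 ± 0.05, both without overlap. ITGA2 over ITGB1 went from -2.14 ± 0.05 to -1.94 ± 0.07 and ITGAV over ITGB1 from -2.44 ± 0.13 to -2.67 ± 0.10, without overlap. For ITGAV over ITGB1 the nearest libraries were close, at -2.569 in siNTC5 and -2.576 in HNRNPK siRNA. ITGA5 over ITGB1 went from -1.71 ± 0.05 to -2.001 ± 0.22, and here the groups overlapped. ITGB6 had too few counts for a ratio with ITGAV. In the 2 Scramble libraries ITGA6 over ITGB4 was -1.49 and -1.37, ITGAV over ITGB5 was 0.76 and 0.93, and ITGAV over ITGB8 was 4.98 and 5.24. For these 3 pairs the Scramble values lay beyond siNTC5 on the side away from HNRNPK siRNA. So did ITGA3 over ITGB1 (0.28 and -0.08) and ITGA5 over ITGB1 (-1.48 and -1.48). The remaining pairs with ITGB1 did not. ITGAV over ITGB1, at -2.75 and -2.78 in Scramble, lay within the HNRNPK siRNA range. ITGA6 over ITGB1, at -1.19 and -1.20, lay between siNTC5 and HNRNPK siRNA. ITGA2 over ITGB1 was at -1.96, within the HNRNPK siRNA range, and at -2.11, within the siNTC5 range.

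**Figure D2:**
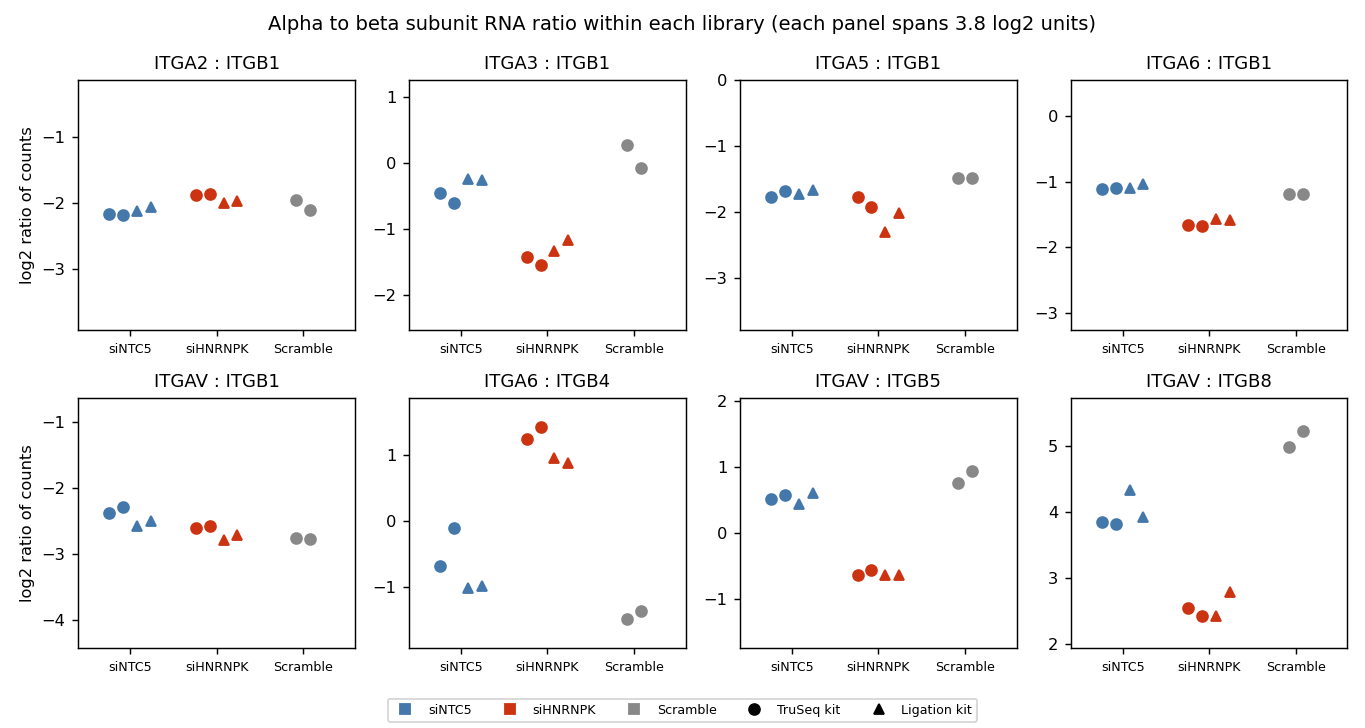
Log2 ratio of alpha to beta subunit counts (vertical axes, each spanning the same number of log2 units) within each of the 10 libraries, for 8 known pairs, with the library kit as the marker shape. ITGA6 over ITGB4 lies above every control in all 4 HNRNPK siRNA libraries and ITGAV over ITGB5 lies below every control in all 4. The pairs with ITGB1 move less.

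The kit split both groups evenly, which allowed a test of whether the response to HNRNPK siRNA differed between kits. None of the 9 subunits passed in edgeR (0 of 9, against 0.129% of all genes), and DESeq2 called 0 of the 8 to which it gave an adjusted p, ITGB8 having none. At an unadjusted p under 0.05 there was 1, ITGA5, whose log2 fold changes in the kits differed by -0.30, Ligation minus TruSeq (SE 0.10, unadjusted p = 0.00729, adjusted p = 0.241). Without the filter on low counts ITGA5 was called, with a difference of -0.31 and an adjusted p of 0.0382 (edgeR). Over all genes, 239 of 21564 were called without the filter, against 18 of 13933 with it. Kit and replicate number go together and cannot be told apart.

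The Scramble libraries stood apart from siNTC5 although both received nontargeting siRNA. Scramble had higher levels of 7 of the 9 subunits and a lower level of 1, against 35.1% of all genes called higher and 33.5% lower. ITGB4 was at 1181 and 1141 CPM, against at most 614 CPM in siNTC5 (log2 fold change 1.63, SE 0.13, adjusted p = 2.9e-07, edgeR). ITGA3 was at 1157 and 960 CPM (log2 fold change 1.34, SE 0.08), and the GALK1 overlap partner of ITGB4 was higher by 1.01 (SE 0.12). The log2 fold changes were 0.95 for ITGA5, 0.85 for ITGA2, 0.71 for ITGB1, 0.62 for ITGA6 and 0.28 for ITGAV. ITGB8, at 4.49 and 3.92 CPM, was lower (log2 fold change -1.001, SE 0.17, adjusted p = 0.000219). ITGB5, at 83.8 and 77.4 CPM, did not pass the test (log2 fold change -0.03, SE 0.07, adjusted p = 0.736). Purification kit and counting table go together with the Scramble group and cannot be told apart.

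The tables also differed in what they counted. Of 25527 names in every table, 152 were at 50 CPM or more in both Scramble libraries and under 1 CPM in all 8 others, and 1 was the other way round. ACTN4 and ZYX, genes of focal adhesion and actin-linking proteins, were among them, with ACTN4 at 1051 to 1096 CPM in Scramble and at most 0.295 CPM elsewhere. None of the 10 integrin subunits was among these names. The part of the counting in the higher integrin levels of Scramble was not tested.

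Set against Scramble in place of siNTC5, the HNRNPK siRNA libraries were lower in 7 of the 9 subunits and higher in 2, where 42.8% of all genes were called lower and 38.8% higher. The comparisons share the HNRNPK siRNA libraries, so their values are only set side by side. The log2 fold change of ITGB4 was -4.01 (SE 0.06) against Scramble and -2.37 against siNTC5. For ITGA3 these were -2.36 and -0.99, for ITGA6 -1.25 and -0.54, for ITGA5 -1.14 and -0.29, and for ITGAV -0.60 and -0.24. For ITGB5 they were 0.85 (SE 0.06) and 0.91, and for ITGB8 2.02 (SE 0.14) and 1.17. ITGB1 (-0.77, SE 0.05) and ITGA2 (-0.62, SE 0.05) were called lower against Scramble, where ITGB1 had not passed and ITGA2 had been higher against siNTC5. The direction of ITGA2 and the call of ITGB1 therefore rest on which nontargeting libraries serve as control, while the direction of ITGB4, ITGA3, ITGA6, ITGA5, ITGAV, ITGB5 and ITGB8 was the same with either. Set in order over the 3 groups, ITGA3, ITGA5, ITGA6, ITGAV and ITGB4 were highest in Scramble and lowest in HNRNPK siRNA, with no overlap between neighbours. ITGA2 was highest in Scramble and lowest in siNTC5, and ITGB8 highest in HNRNPK siRNA and lowest in Scramble, also without overlap. ITGB5 was highest in HNRNPK siRNA, with siNTC5 and Scramble overlapping, and ITGB1 was highest in Scramble, with the other groups overlapping.

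**Figure D3:**
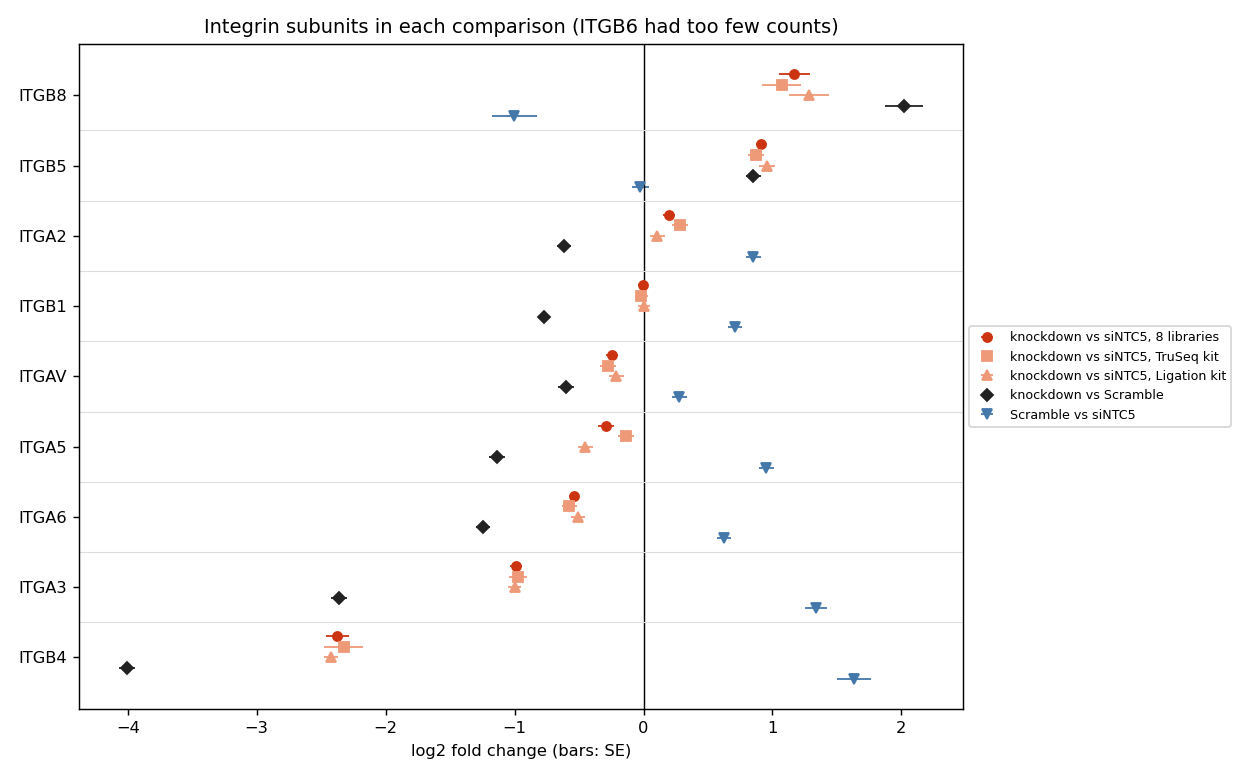
Log2 fold change with its standard error (horizontal axis) of the 9 tested integrin subunits, for HNRNPK siRNA against siNTC5 in all 8 libraries and within each kit, for HNRNPK siRNA against Scramble, and for Scramble against siNTC5. Within each kit the signs for ITGB4, ITGA3, ITGA6, ITGA5, ITGAV, ITGA2, ITGB5 and ITGB8 are those of all 8 libraries, ITGB5 stays near 0.9 against either control, and ITGA2 lies at 0.20 against siNTC5 and at -0.62 against Scramble.

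The surroundings of the integrins were taken from 8 lists of adhesion genes with 142 members, of which 122 were tested in HNRNPK siRNA against siNTC5. In all, 33 were higher, 57 lower and 32 not called, beside the 35.5% and 36.1% of all genes. Among the other integrin subunits, 9 of 16 were tested, 4 were higher and 2 lower. The largest rise was that of ITGAM, known as a myeloid alpha subunit, from 1.37 ± 0.47 to 7.15 ± 0.64 CPM (log2 fold change 2.41, SE 0.18, adjusted p = 1.06e-09, edgeR). ITGB3, another vitronectin-binding partner of ITGAV in platelets and endothelium, rose from 1.45 ± 0.64 to 3.55 ± 0.30 CPM (log2 fold change 1.34, SE 0.23). ITGA7, another laminin-binding alpha subunit, fell from 20.9 ± 2.27 to 10.47 ± 1.02 CPM (log2 fold change -0.97).

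Of the proteins that switch integrins on or off, 15 of 16 were tested, with 5 higher, 6 lower and a median log2 fold change of -0.07. TLN2, a talin that binds beta tails, fell from 16.7 ± 1.30 to 7.64 ± 0.72 CPM (log2 fold change -1.11, SE 0.10), while TLN1 did not pass the test. Focal adhesion adaptors and kinases had 33 of 35 tested, 10 higher and 15 lower, with a median of -0.06. TGFB1I1, a paxillin relative, fell from 6.29 to 2.99 CPM (log2 fold change -1.05, SE 0.16), and VCL, which encodes vinculin, fell from 312 ± 19.5 to 162 ± 8.06 CPM (log2 fold change -0.94). CRK, called lower in this list, was at most 4.82 CPM in these 8 libraries but at 160 to 161 CPM in Scramble, so its value rests on few counts. ILK and BCAR1, not called, had gaps of the same kind. ILK was at most 12.0 CPM in these 8 libraries and at 120 and 126 CPM in Scramble. BCAR1 was at most 4.49 CPM and at 36.8 and 31.0 CPM in the same order. The part of the counting in these gaps was not tested.

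All 7 hemidesmosome genes were tested, with 1 higher and 3 lower. LAMB3, the beta chain of laminin 332 that the ITGA6 and ITGB4 receptor binds, rose from 71.8 ± 13.5 to 166 ± 24.6 CPM (log2 fold change 1.22, SE 0.06, adjusted p = 1.72e-12), opposite to ITGB4. The plakins DST and PLEC, which tie ITGB4 to keratin, fell by 0.89 and 0.53 on the log2 scale, and CD151, the tetraspanin of laminin-binding integrins, fell by 0.40. PLEC overlapped between the groups, at 367 to 806 CPM in siNTC5 and 281 to 618 CPM in HNRNPK siRNA. Its Ligation libraries were the higher ones in each group. In Scramble LAMB3 was at 222 and 230 CPM, above every HNRNPK siRNA library.

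Matrix ligands had 19 of 26 tested, with 3 higher and 15 lower and a median log2 fold change of -0.44. The type IV collagen chains COL4A6 and COL4A5 fell, COL4A6 from 7.99 to 1.88 CPM (log2 fold change -2.06, SE 0.17) and COL4A5 from 85.0 to 33.9 CPM (log2 fold change -1.31, SE 0.06). Against these, THBS1, a secreted glycoprotein that binds ITGAV and CD47, rose from 13.0 ± 2.57 to 94.0 ± 4.95 CPM (log2 fold change 2.85, SE 0.10, adjusted p = 2.69e-14). Its receptor CD47, an integrin-associated surface protein, fell from 71.9 to 31.0 CPM (log2 fold change -1.20, SE 0.06). CD47 and TSPAN4 (log2 fold change -1.01, SE 0.10) led the falls in the list of tetraspanins and surface partners, where 13 of 14 were tested, 2 higher and 7 lower, with a median of -0.24.

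The list of latent TGF-beta genes had 7 of 9 tested, with 3 higher and 1 lower. LTBP2, a latent TGF-beta binding protein family member, rose from 6.01 ± 0.83 to 23.1 ± 1.73 CPM (log2 fold change 1.94, SE 0.11). TGFB1 and TGFB3 themselves did not pass the test (log2 fold change 0.02 and -0.02). Integrin trafficking genes had 19 of 19 tested, 5 higher and 8 lower, with a median of -0.05. SNX31 had the largest rise of that list (log2 fold change 3.42, SE 0.33, adjusted p = 2.54e-08, edgeR). Its levels were low, 0.201 to 0.473 CPM in siNTC5 and 1.93 to 5.71 CPM in HNRNPK siRNA.

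**Figure D4:**
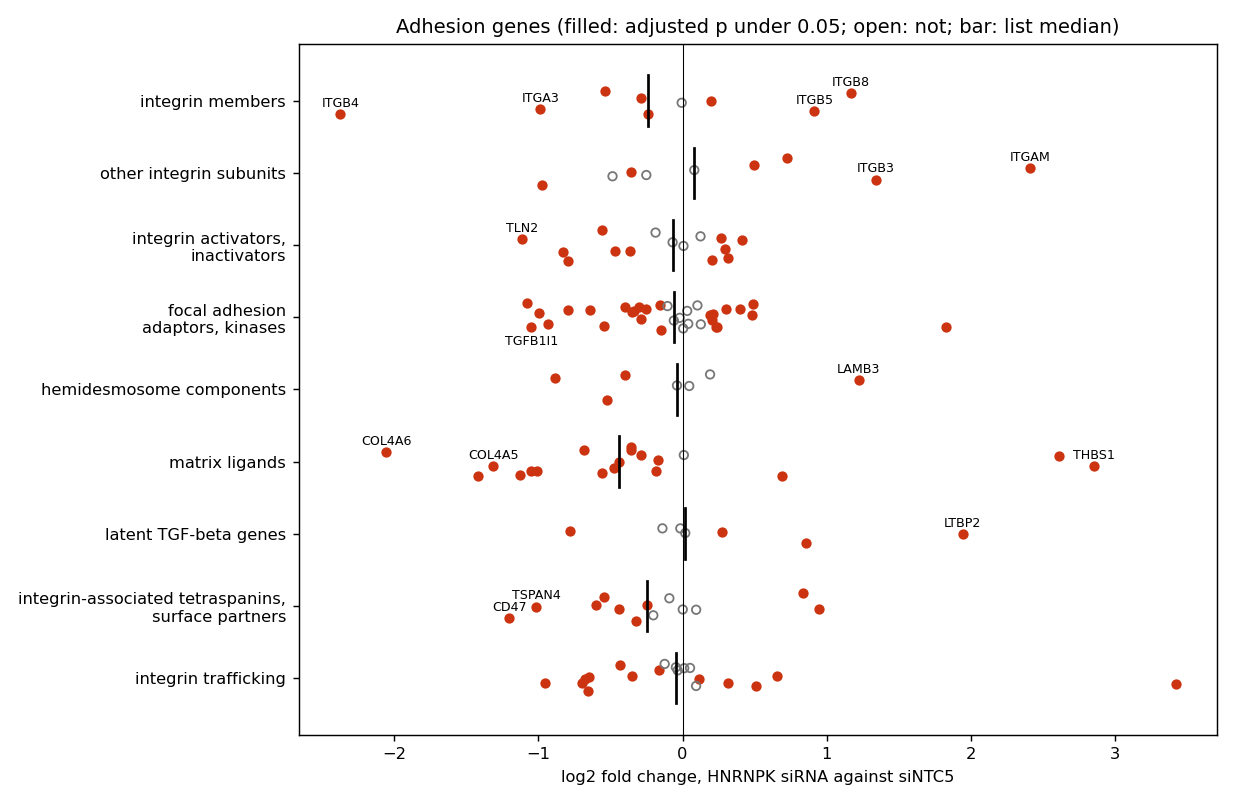
Log2 fold change of HNRNPK siRNA against siNTC5 (horizontal axis) for the tested genes of the 10 integrin subunits and of 8 lists of adhesion genes, 1 point per gene, filled where the adjusted p was under 0.05, with the list median as a bar. ITGB4 and COL4A6 lie farthest to the left among the labelled genes, THBS1 and ITGAM farthest to the right, and most of the matrix ligands lie left of 0. SNX31 (3.42) and NID2 (2.61), unlabelled and averaging under 1 log2 CPM, lie to the right of ITGAM.

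The genes whose profiles over the 8 libraries were most like those of the subunits that moved most were taken by the root mean square (RMS) difference of centred log2 CPM, with 0.5 CPM added, among 13274 other genes. For ITGB4 they were KCNH3, a potassium channel gene, at an RMS difference of 0.123, then GALK1 at 0.136 and LGALS1, which encodes galectin 1, at 0.159. KCNH3 went from 54.5 to 11.4 CPM and LGALS1 from 418 to 77.0 CPM. For ITGB8 they were RNF139-AS1, an antisense RNA, at 0.0909, IFRD1 at 0.116 and NCEH1 at 0.119. IFRD1 went from 34.9 to 75.9 CPM and NCEH1 from 20.7 to 48.3 CPM, while RNF139-AS1 was at 0.288 and 1.26 CPM, near the added value. These genes share the libraries, their depth and the kit split with the subunits.

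In the chromatin data, a gene was called covered at 50% or more of its body, and 0 of the 10 subunits were so covered in any of the 7 lists. Over 26987 genes with a position, the share was 13.0% for lamin B1 in control cells and 9.23% after HNRNPK siRNA, 9.07% for H3K9me2 in control cells, and 9.43% and 13.3% for H3K9me3. For H3K27me3, the mark of Polycomb repression, it was 22.7% in control cells and 20.9% after HNRNPK siRNA. Genes that passed the count filter had lower shares, 2.96% for lamin B1 and 9.84% for H3K27me3 in control cells, and 9 of the 10 subunits passed that filter, so with 10 genes a count of 0 is near these shares. Among the 16 other integrin genes, 7 were covered by H3K27me3 in both lists, ITGA8, ITGA9, ITGA11, ITGAD, ITGAM, ITGAX and ITGB2. ITGAM, which rose, was thus covered in both H3K27me3 lists, and it was also covered by H3K9me3 after HNRNPK siRNA. There is 1 list per antibody and siRNA, so no difference between lists has a replicate check.

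Counting any covered base, only ITGA6 and ITGB6 touched a domain. ITGB6, the subunit with hardly any counts, had 20.2% of its body in an H3K9me3 domain of 80 kb in the HNRNPK siRNA list, chr2:160040001-160120000, and none in the control list, where the nearest H3K9me3 domain was 520 kb away. ITGA6 had 1.8% of its body in an H3K9me3 domain in both lists. From ITGB4 the nearest H3K9me3 domain was 1551 kb away in control cells and 1367 kb after HNRNPK siRNA. ITGB5 was 21.9 kb from an H3K27me3 domain in both lists. ITGAV was 24.1 kb from an H3K9me3 domain after HNRNPK siRNA and 995 kb in control cells, and ITGB8 49.2 kb and 330 kb. The median distance over the 10 subunits was 820 kb for H3K9me3 in control cells and 107 kb after HNRNPK siRNA, while more of all genes, 13.3% against 9.43%, were covered in the latter list. For lamin B1 the medians were 2431 kb and 2726 kb, and for H3K27me3 287 kb and 302 kb.

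**Figure D5:**
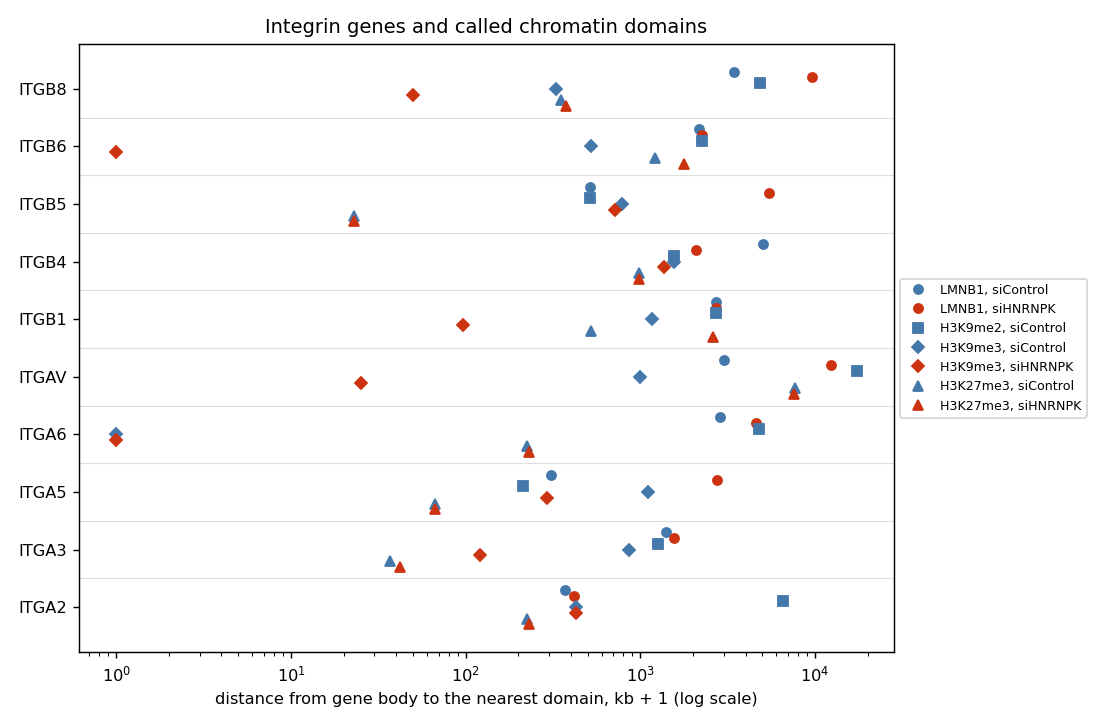
Distance from each of the 10 integrin gene bodies to the nearest called domain (horizontal axis, kb plus 1, log scale) in the 7 domain lists, coloured by siRNA with the antibody as the marker shape. Lamin B1 domains lie 306 kb or more from every subunit, and H3K9me3 domains touch ITGA6 in both lists and ITGB6 after HNRNPK siRNA.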

How the data were processed

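Per the submitters' processing notes, STAR 2.7.1a, featureCounts (Subread 2.0.6 for the table of 8 libraries) and hg38 were used, with hg19 and DESeq2 also named for Scramble. Annotation and strand setting are not given in the sources used here. The authors deposited raw counts per gene name, and ChIP domains with a score whose unit, caller and pooling are not given in the sources used here.

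Counts were tested over whole tables in edgeR 4.0.16 (limma 3.58.1, R 4.3.3) with filterByExpr, TMM, kit as covariate, the quasi-likelihood test and Benjamini-Hochberg adjustment over all tested genes, at 0.05. Fits with Scramble used the 25527 shared names. SE is the log2 fold change over the root of F. Positions (95.4% of names) and promoters came from RefSeq GRCh38.p14 by symbol, and domain lists were read as hg38. List genes are named that passed the test, changed by 1 or more on the log2 scale, averaged 1 log2 CPM or more and had no overlap between the groups, at most 3 per direction. ITGA7, TLN1, VCL, CRK, ILK, BCAR1, DST, PLEC, CD151, TGFB1, TGFB3, SNX31, NID2, ACTN4 and ZYX were added after their values were seen. The members, lists and rules were chosen with earlier results of these data known.

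Same-numbered libraries deviated together from their group means (correlations over 13933 genes 0.130, 0.488, 0.400 and 0.321). After a fit of kit and group the correlations were -0.197, -0.153, -0.295 and -0.263. Such a fit pulls these values below 0 even in libraries without pairing, so their negative sign is no result in itself. Alternatives were a replicate block, other normalisations, DESeq2 1.42.0, other filters, single kits and leaving out each library. The edgeR fit, with and without the kit interaction, was run on simulated counts in which few genes changed and no kit effect was set. The Scramble comparisons, ratios, promoters and domains were not part of that simulation.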

Additional observations from a re-analysis of the deposited data

Results flagged for a closer look

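Of the 22 groups of 4 values examined for a sample far from the rest, 1 was picked out, where chance picks about 1 in 20 groups. ITGB5 in HNRNPK siRNA replicate 4 was at 147.7 CPM, and the other 3 HNRNPK siRNA libraries lay between 144.8 and 145.0 CPM. The siNTC5 libraries were all at or below 79.5 CPM, and without this library the log2 fold change of ITGB5 still passed the test.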

How the results depend on the processing

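In HNRNPK siRNA against siNTC5, 8 subunits (3 higher, 5 lower) were called with every single library left out, and with the replicate block, which changed no call of a subunit. Each kit alone called 7, and Scramble libraries added to the controls left 6. Over all genes, the calls went from 9968 of 13933 to 8186 of 14171 in the TruSeq and 9529 of 13999 in the Ligation libraries. With Scramble added they were 6965 of 13460. With a change of 1 or more on the log2 scale required, 2 of the 9 tested subunits and 19 of the 122 tested adhesion genes remained called. Over all genes this share was 15.8%. The sign of ITGB1, never called in this comparison, turned with upper-quartile normalisation (0.0273), with a mean of at least 50 counts (0.0242), in the Ligation libraries (0.0034) and without siNTC5 replicate 1 (0.0030, lowest -0.0279 over the libraries left out). ITGA2 turned to -0.0861 with Scramble added (adjusted p = 0.749), where ITGA5 was at -0.60 (adjusted p = 0.0561, edgeR). In the kit test, no filter gave 1 subunit called, 1 lower, where calls over all genes went from 18 of 13933 to 239 of 21564. In that test ITGB1 was at -0.008 with upper-quartile normalisation. ITGB5 in Scramble against siNTC5, not called, was at 0.012 with no filter, 0.0136 with no kit term and between -0.0757 and 0.0308 with libraries left out, the last without Scramble replicate 2. Upper-quartile normalisation moved the all-gene median of HNRNPK siRNA against Scramble from -0.04 to 0.14, with 7 subunits lower and 2 higher in both. By any covered base, 1 subunit touched H3K9me3 in control cells and 2 after HNRNPK siRNA. The cause of these shifts was not tested. ITGB6 alone among the subunits had too few counts for the main tests, and ITGB8 had no adjusted p from DESeq2 in the kit test.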
